A study of Mus musculus with 4 samples.

Results

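The genes of the proteasome were followed in RNA from cultured mouse T helper 17 (Th17) cells, as every row of the deposited gene table whose symbol is Psm, a letter from a to g and a number, with or without a last letter. The pattern took 49 of 34745 genes, and 47 of them were among the 12927 genes with enough counts to be tested. The groups were 2 wild-type (WT) libraries, numbered 13 and 15, and 2 libraries labelled Setd2-CD4 cre, numbered 22 and 24. All came from C57BL/6 mice, as naive CD4+ T cells of the spleen kept for 3 days in Th17 differentiation conditions. Setd2 encodes the methyltransferase that sets H3K36 trimethylation, and a Cre under Cd4 regulatory sequences acts in developing T cells. Which exons Cre removes, and whether WT mice carried Cre or a loxP allele, is not given in the sources used here. The labels do not say that libraries of a genotype came from separate mice, so the p-values speak only of the spread among these 4 samples, and that spread may be technical.

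The proteasome is the protease that breaks down most proteins marked with ubiquitin. Its barrel-shaped core is built of outer rings of alpha subunits and inner rings of beta subunits, and a regulatory particle of ATPases and non-ATPase subunits binds ubiquitin, unfolds the substrate and feeds it in. Activated lymphocytes exchange the catalytic beta subunits for immunoproteasome versions, which change the peptides made for MHC class I, and other activators can cap the core in place of the regulatory particle.

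Libraries held 11007343 to 12518415 counts, and levels below are CPM, counts scaled to library size with TMM factors. Setd2 itself was at 183 and 176 CPM in WT and 144 and 153 CPM in Setd2-CD4 cre. Its log2 fold change, -0.28 (SE 0.10, edgeR adjusted p = 0.0748), did not pass the threshold of 0.05. It passed as lower with upper-quartile factors and library totals (edgeR adjusted p = 0.0242 and 0.0216) and with both limma fits of FPKM (limma adjusted p = 0.0439 and 0.0442). These counts cover the whole gene, not the removed exons. The T cell and Th17 markers were present in every library, with Cd4 at 939 to 1138 CPM and Il17a at 162 to 586 CPM, and the 10 markers summed to 2804 to 3258 CPM. Marker sums of some other cells moved with genotype. The 12 B cell markers summed to 215 to 255 CPM in WT and 523 to 730 CPM in Setd2-CD4 cre, and 11 of them rose. The 10 dendritic cell and macrophage markers summed to 88.5 to 91.1 CPM and 165 to 245 CPM, with Siglech at 0 in every library. Of the 7 tested, 3 were higher (Cd74, H2-Ab1 and Flt3). Itgax, Lyz2 and Adgre1 went the other way, with both Setd2-CD4 cre libraries below both WT libraries. Itgax and Lyz2 did not pass (edgeR adjusted p = 0.125 and 0.247), and Adgre1 was not tested. The 8 CD8 T and NK cell markers summed to 216 to 240 CPM and 307 to 492 CPM. Klrd1, Klre1 and Gzma were higher, 3 of the 6 tested. The genotypes overlapped for the others, among them Cd8a, at 35.1 and 50.6 CPM in WT and 75.2 and 24.8 CPM in Setd2-CD4 cre. Cd8b1 was at 20.7 and 22.0 CPM and at 51.9 and 20.4 CPM, and Eomes at 2.13 and 2.97 CPM and at 2.53 and 1.56 CPM. Neutrophil and erythroid markers stayed at a summed 0.913 to 3.39 CPM, with Mpo, Elane and Alas2 at 0 throughout. The part of these other markers in the proteasome values was not tested, and in bulk RNA fewer cells of a type and less RNA per cell cannot be told apart.

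Proteasome transcripts changed in both directions between genotypes, and most did not pass the test. Of 47 tested members, 4 rose in Setd2-CD4 cre (Psmc6, Psmd8, Psmd4 and Psma3) and 3 fell (Psma5, Psmc1 and Psme3) by edgeR's quasi-likelihood test at a Benjamini-Hochberg adjusted p under 0.05. That is 14.9% of the members, against 30.7% of all genes tested in either direction, 16.2% higher and 14.5% lower. Their log2 fold changes ran from -0.65 to 0.77 with a median of -0.02, and the median over all tested genes was -0.01. The median size of change without its sign was 0.22 in the members and 0.39 over all tested genes. The genotypes did not overlap for 33 of the 47, with 16 higher and 17 lower in Setd2-CD4 cre, or 70.2% beside 70.7% of all genes (34.6% higher and 36.1% lower). An unadjusted p under 0.05 was reached by 14 of the 47, beside 44.3% of all genes. With library totals in place of TMM scaling, 3 members rose and 10 fell. Of all genes 33.2% were called in that fit, 10.9% higher and 22.3% lower. With upper-quartile factors 3 members rose and 8 fell, beside 32.4% of all genes, 12.1% higher and 20.2% lower. The median of all tested genes moved to -0.16 with library totals and -0.12 with upper-quartile factors.

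Within Setd2-CD4 cre the libraries stood apart for most members. Library 22 was above library 24 for 38 of 47 tested members and for 6464 of all 12927 tested genes. The members summed to 3673 and 3750 CPM in WT, 4124 CPM in library 22 and 3653 CPM in library 24, so the sum was highest in library 22 and library 24 lay just under WT. Library 22 also had the higher B cell marker sum, 730 CPM against 523 CPM. Its dendritic cell and macrophage sum (245 against 165 CPM) and CD8 T and NK cell sum (492 against 307 CPM) were higher too. The T cell and Th17 sum was lower in library 22 (2833 against 3258 CPM), as was the neutrophil and erythroid sum (1.75 against 3.39 CPM). The part of these markers in the proteasome sums was not tested. Without library 24, 15 members rose and 5 fell, beside 44.3% of all genes called in that fit. Without library 22, 4 rose and 8 fell, beside 37.1%.

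**Figure D1:**
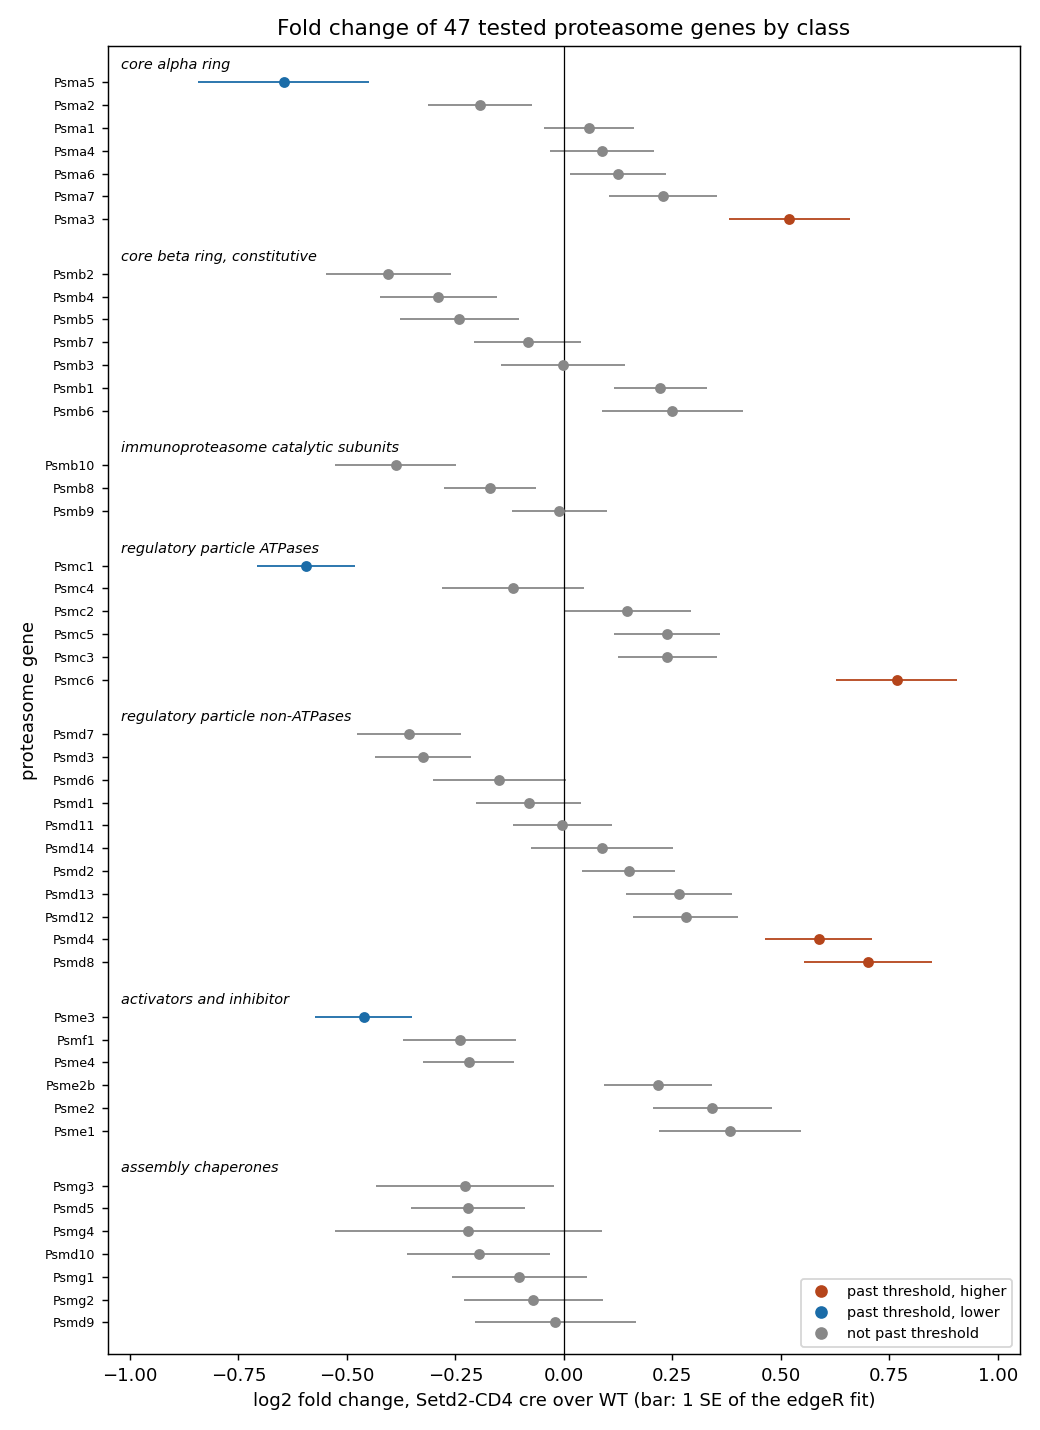
Log2 fold change of the 47 tested proteasome genes (x axis, Setd2-CD4 cre over WT, on the TMM scale), grouped by role, with bars of 1 SE from the edgeR fit and colour for genes past the threshold. Most points lie within 0.40 of zero, and the 7 coloured genes spread over the alpha ring, the regulatory particle and an activator.

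Upstream sequences are shown for the members at the ends of this range, the largest 2 rises and the largest 2 falls, because these genes carry the largest changes in either direction. They are the 250 bases before the RefSeq start on GRCm38.p6, 5′ to 3′ on the gene's strand, with capitals for matches to the motifs named below. Psmc6 is read from chr14:45329574-45329823 (+), Psmd8 from chr7:29180674-29180923 (-), Psma5 from chr3:108256676-108256925 (+) and Psmc1 from chr12:100109952-100110201 (+).
Psmc6: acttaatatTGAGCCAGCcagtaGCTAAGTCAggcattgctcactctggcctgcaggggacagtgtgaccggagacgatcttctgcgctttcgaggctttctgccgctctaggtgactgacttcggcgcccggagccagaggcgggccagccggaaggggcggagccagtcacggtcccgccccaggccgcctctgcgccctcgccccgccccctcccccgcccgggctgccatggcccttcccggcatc
Psmd8: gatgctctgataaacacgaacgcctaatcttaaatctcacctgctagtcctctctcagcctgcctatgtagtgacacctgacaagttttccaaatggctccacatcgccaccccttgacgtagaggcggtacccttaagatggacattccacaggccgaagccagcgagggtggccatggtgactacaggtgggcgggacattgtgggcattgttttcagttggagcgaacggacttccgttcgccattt
Psma5: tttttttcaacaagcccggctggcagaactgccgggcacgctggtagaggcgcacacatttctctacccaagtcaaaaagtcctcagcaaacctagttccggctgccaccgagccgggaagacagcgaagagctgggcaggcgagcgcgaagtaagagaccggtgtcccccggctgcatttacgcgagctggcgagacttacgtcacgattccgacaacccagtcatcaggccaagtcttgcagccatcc
Psmc1: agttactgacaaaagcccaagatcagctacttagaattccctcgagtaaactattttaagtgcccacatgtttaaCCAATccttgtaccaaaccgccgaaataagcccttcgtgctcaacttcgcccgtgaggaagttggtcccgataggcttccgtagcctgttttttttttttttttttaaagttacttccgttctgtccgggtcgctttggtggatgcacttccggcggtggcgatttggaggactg
The Psmc6 window holds 2 matches to the antioxidant response element core TGANNNNGC, known from NRF1 and NRF2 targets, and the Psmc1 window holds 1 CCAAT box, the letters bound by NF-Y. The Psmd8 and Psma5 windows hold none of the 5 motifs searched.

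Those motifs were searched on both strands in 44 windows of 41 members and in 32851 windows of all genes. CCAAT was in 31.8% of member windows and 33.85% of all windows, and TGANNNNGC was in 38.6% and 35.2%. The interferon-stimulated response element core (GAAA, any 2 bases, GAAA) was in 6.82% and 2.98%, in Psmb3, Psmd4 and Psmd9. The STAT element TTCNNNGAA was in 4.55% and 7.02%, in Psmb8 and Psmg1. The heat shock element (GAA, TTC and GAA with any 2 bases between) was in 0 member windows and 0.466% of all windows. Matches may overlap one another, and each is a run of letters only. Of the 4 members that rose, Psmc6 held TGANNNNGC, Psma3 held CCAAT, and Psmd4 held CCAAT and the interferon-stimulated core. Among those that fell, Psmc1 and Psme3 held CCAAT.

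In the alpha ring, whose subunits form the outer rings and gate the channel, 1 of 7 genes rose and 1 fell. Together that was 28.6%, beside 30.7% of all genes called. Psma3 (ENSMUSG00000060073, chr12:70974621-70996347, + strand of GRCm38), an alpha subunit, was at 38.8 and 39.1 CPM in WT and 61.1 and 50.6 CPM in Setd2-CD4 cre. Both Setd2-CD4 cre libraries lay above both WT libraries, and the log2 fold change was 0.52 (SE 0.14, edgeR adjusted p = 0.027). Psma5 (ENSMUSG00000068749, chr3:108256926-108279974, +), another alpha subunit, went the other way, at 15.2 and 14.6 CPM in WT and 8.56 and 10.4 CPM in Setd2-CD4 cre. Its counts were low, 199 and 192 against 88 and 114, and its log2 fold change was -0.65 (SE 0.20, edgeR adjusted p = 0.0409). The other 5 alpha genes had log2 fold changes of -0.19 (Psma2) to 0.23 (Psma7), with none past the threshold. So within a ring that takes its subunits in equal number, these 2 mRNAs changed in opposite directions.

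Psma5 also had a near-identical copy in the table. The processed pseudogene Gm8394 matches its longest coding transcript at 98.634% of 952 aligned bases and was listed with 125 and 131 counts in WT against 71 and 64 in Setd2-CD4 cre, or 65.9% of the Psma5 total. How reads were shared between the gene and its copy cannot be told from the table. Counted together they held 324 and 323 counts in WT against 159 and 178 in Setd2-CD4 cre, a log2 change of -0.63 (SE 0.15, edgeR adjusted p = 0.018). The span of Psma3 overlaps that of 3110056K07Rik on the opposite strand. 3110056K07Rik held 267 and 251 counts in WT against 191 and 249 in Setd2-CD4 cre, or 43.5% of the Psma3 total. The sources used here do not say whether counting used strand.

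None of the 7 constitutive beta subunits passed the threshold in edgeR with TMM scaling. At an unadjusted p under 0.05, 1 of them did, beside 44.3% of all genes. Psmb2 did pass as lower in edgeR with upper-quartile factors, library totals and no filter (adjusted p = 0.0311, 0.021 and 0.0413), and Psmb4 with library totals (adjusted p = 0.0361). By other tools, DESeq2 and limma-voom called none of the 7, beside 26.3% and 30.9% of all genes. With limma on log2 FPKM 3 were lower (Psmb2, Psmb4 and Psmb5), beside 31.0% and 30.5% with pseudocounts of 1 and 0.1. The gene with the low unadjusted p was Psmb2, a structural beta subunit, at 71.7 and 79.7 CPM in WT and 63.8 and 50.6 CPM in Setd2-CD4 cre (log2 fold change -0.40, SE 0.14, edgeR adjusted p = 0.0661). Its genotypes did not overlap, yet the Setd2-CD4 cre libraries were further apart than the nearest libraries of different genotype. Psmb5, which carries the chymotrypsin-like site, was at 35.5 and 36.3 CPM in WT and 31.9 and 28.8 CPM in Setd2-CD4 cre. Psmb6, with the caspase-like site, was at 64.2 and 75.3 CPM and at 94.98 and 71.0 CPM, and Psmb7, with the trypsin-like site, at 63.4 and 64.04 CPM and at 64.4 and 55.9 CPM. The log2 fold changes of these 3 catalytic genes were -0.24, 0.25 and -0.08 (edgeR adjusted p = 0.212, 0.272 and 0.634), and only Psmb5 had groups that did not overlap. Psmb7 and Nek6 lie on opposite strands and share 255 bases of exon. Nek6 held 339 and 311 counts in WT against 259 and 364 in Setd2-CD4 cre, or 43.2% of the Psmb7 total.

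The immunoproteasome genes, which interferon-gamma induces in many cells, were well expressed and none of the 3 passed the threshold in edgeR with TMM scaling. In that fit 1 (Psmb10) had an unadjusted p under 0.05, beside 44.3% of all genes. Psmb10 passed as lower in edgeR with upper-quartile factors and library totals (adjusted p = 0.0297 and 0.0229). DESeq2 and limma-voom called none, and limma on log2 FPKM called Psmb10 as lower. Psmb8, the replacement for Psmb5, was at 254 and 231 CPM in WT and 221 and 210 CPM in Setd2-CD4 cre. It was lower in both Setd2-CD4 cre libraries, with a log2 change of -0.17 and a 95% interval of -0.42 to 0.08 (edgeR adjusted p = 0.254). Psmb9, the replacement for Psmb6, was at 156 and 147 CPM in WT and 143 and 158 CPM in Setd2-CD4 cre, so the genotypes overlapped and the interval of its log2 fold change was -0.26 to 0.24 (edgeR adjusted p = 0.95). Psmb10, the replacement for Psmb7, was at 29.4 and 28.4 CPM in WT and 22.2 and 21.98 CPM in Setd2-CD4 cre. Its replicates lay closest together of the 3 and its groups did not overlap, at a log2 change of -0.39 (interval -0.71 to -0.07, edgeR adjusted p = 0.0676). Psmb8 and Psmb9 are neighbours on chromosome 17 (34197721 to 34201454 and 34181987 to 34187764), beside the peptide transporter gene Tap1. Psmb9 and Tap1 lie on opposite strands and share 212 bases of exon, and Tap1 held 175% of the counts of Psmb9.

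**Figure D2:**
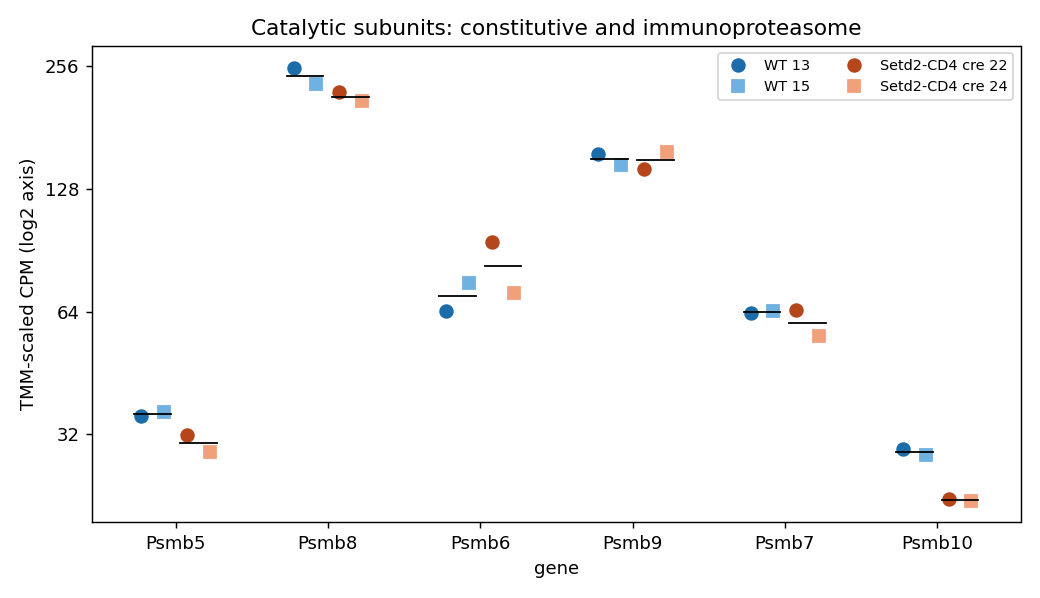
Level in each library (y axis, TMM-scaled CPM on a log2 axis) of the 3 constitutive catalytic subunits and the immunoproteasome subunit that replaces each, with lines at group means. Psmb8 stands highest at 210 to 254 CPM, and only Psmb8, Psmb10 and Psmb5 have Setd2-CD4 cre libraries wholly below WT.

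The exchange of subunits was also read as a ratio within each library, which no library scaling can change. Psmb8 over Psmb5 in deposited FPKM, which scales counts to gene length and library size, was 1.62 and 1.44 in WT against 1.57 and 1.65 in Setd2-CD4 cre. Psmb9 over Psmb6 was 1.20 and 0.961 in WT against 0.742 and 1.10 in Setd2-CD4 cre, and the genotypes overlapped for both ratios. Psmb10 over Psmb7 was 1.30 and 1.24 in WT against 0.965 and 1.10 in Setd2-CD4 cre, with both Setd2-CD4 cre libraries lower. On the log2 scale Psmb10 over Psmb7 was 0.35 ± 0.05 in WT and 0.05 ± 0.14 in Setd2-CD4 cre (SD, n = 2), a difference of -0.30 with a two-sided exact permutation p of 0.333. With 2 libraries against 2 that is the smallest p this test can give, so it could not pass 0.05. The differences for Psmb8 over Psmb5 and Psmb9 over Psmb6 were 0.07 and -0.25 (exact permutation p = 0.667 for each), and adjusted over the 3 ratios each p was 0.667. The part that exon bases shared with Nek6 (Psmb7) and Tap1 (Psmb9) have in these ratios was not tested.

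**Figure D3:**
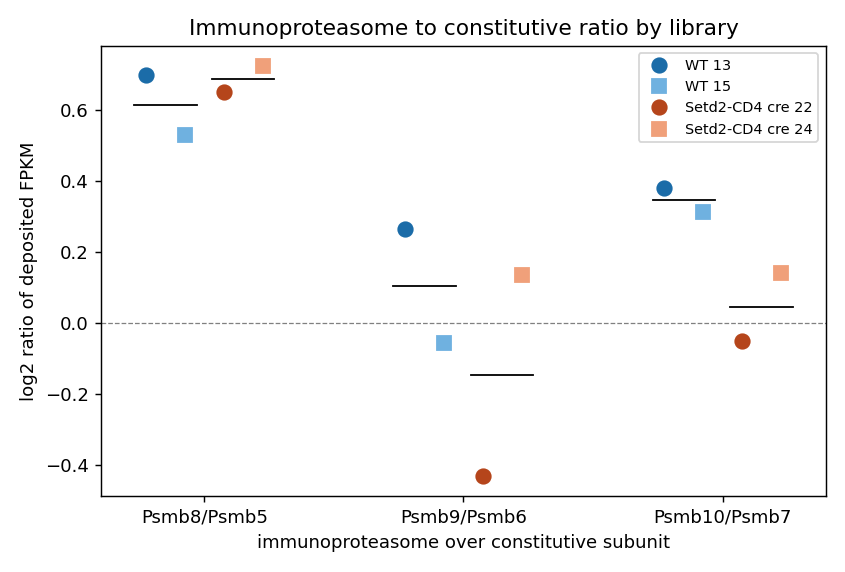
Log2 ratio of deposited FPKM (y axis) of each immunoproteasome subunit to its constitutive counterpart, 1 point a library, with lines at group means and a dashed line at equal FPKM. The WT and Setd2-CD4 cre points are mixed for the first 2 ratios and apart for Psmb10 over Psmb7.

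The ATPase ring of the regulatory particle, which unfolds substrates, held the largest rise and a fall of similar size. These were 2 of 6 genes, or 33.3%, beside 30.7% of all genes called. Psmc6 (ENSMUSG00000021832, chr14:45329788-45349705, +), an ATPase of that ring, was at 121 and 133 CPM in WT and 243 and 190 CPM in Setd2-CD4 cre. Even the lower Setd2-CD4 cre library was well above WT, and the level was 1.70-fold higher (log2 fold change 0.77, SE 0.14, edgeR adjusted p = 0.00669). Psmc1 (ENSMUSG00000021178, chr12:100110154-100123405, +), an ATPase of the same ring, was at 114 and 128 CPM in WT and 79.7 and 80.5 CPM in Setd2-CD4 cre. The Setd2-CD4 cre libraries were close together below both WT libraries, and WT was 1.51-fold higher (log2 fold change -0.59, SE 0.11, edgeR adjusted p = 0.00812). The remaining 4 ATPase genes did not pass, with log2 fold changes of -0.12 (Psmc4) to 0.24 (Psmc3 and Psmc5). The span of Psmc3 overlaps that of Slc39a13 on the opposite strand, which held 56.8% as many counts.

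Among 11 non-ATPase genes 2 rose and none passed as lower in edgeR with TMM scaling. That was 18.2%, beside 30.7% of all genes called. An unadjusted edgeR p under 0.05 was reached by 5 of the 11, beside 44.3% of all genes. DESeq2 and limma-voom called none as lower, whereas Psmd3 and Psmd7 were called lower in edgeR with upper-quartile factors (Psmd7 adjusted p = 0.0219), in edgeR with library totals (Psmd7 adjusted p = 0.0169) and in both limma fits of FPKM. Psmd8 (ENSMUSG00000030591, chr7:29174188-29180701, -), a lid subunit, was at 142 and 136 CPM in WT and 258 and 193 CPM in Setd2-CD4 cre. Psmd4 (ENSMUSG00000005625, chr3:95032694-95042614, -), a receptor for ubiquitin chains, was at 94.5 and 83.7 CPM in WT and 143 and 125 CPM in Setd2-CD4 cre. Neither gene's genotypes overlapped, and for both library 22 was the highest. Their log2 fold changes were 0.70 (SE 0.15, edgeR adjusted p = 0.0119) and 0.59 (SE 0.12, edgeR adjusted p = 0.0112). Psmd7 and Psmd3, lid subunits, came nearest the threshold on the other side. Psmd7 was at 56.4 and 55.9 CPM in WT and 43.8 and 43.9 CPM in Setd2-CD4 cre, with replicates close together and groups apart (log2 fold change -0.36, edgeR adjusted p = 0.0548). Psmd3 was at 119 and 122 CPM in WT and 100.4 and 91.6 CPM in Setd2-CD4 cre (log2 fold change -0.33, edgeR adjusted p = 0.0567). Psmd14, the deubiquitinase of the lid, was at 74.4 and 77.0 CPM and at 93.7 and 67.2 CPM, so its genotypes overlapped. The lid genes thus differed among themselves, from Psmd8 well above WT to Psmd7 and Psmd3 below it.

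Of the activators and the inhibitor, 1 of 6 genes fell and none rose, or 16.7% beside 30.7% of all genes called. An unadjusted edgeR p under 0.05 was reached by 3, beside 44.3% of all genes. Psme3 (ENSMUSG00000078652, chr11:101316213-101323537, +), which encodes a nuclear activator that works without ubiquitin, was at 116 and 128 CPM in WT and 89.6 and 87.8 CPM in Setd2-CD4 cre. Both Setd2-CD4 cre libraries were lower, at a log2 change of -0.46 (SE 0.11, edgeR adjusted p = 0.0182). Psme1 and Psme2, the interferon-induced activator pair, are neighbours on chromosome 14 (55578123 to 55581529 and 55587441 to 55591113). Psme1 was at 86.1 and 94.2 CPM in WT and 137 and 98.5 CPM in Setd2-CD4 cre (log2 fold change 0.38, edgeR adjusted p = 0.113). Psme2 was at 41.0 and 41.5 CPM in WT and 56.9 and 47.6 CPM in Setd2-CD4 cre (log2 fold change 0.34, edgeR adjusted p = 0.0932). Both stood above WT in each Setd2-CD4 cre library and neither passed the threshold. Psme2b, which matches Psme2 at 99.37% of 794 bases, was at 86.5 and 85.1 CPM and at 109 and 90.8 CPM, and its split from Psme2 is uncertain. The pair counted together gave 0.26 (edgeR adjusted p = 0.136). Psme4, an activator linked to acetylated histones, and Psmf1, an inhibitor of the core, were lower in both Setd2-CD4 cre libraries, at log2 fold changes of -0.22 and -0.24 (edgeR adjusted p = 0.147 and 0.19). With library totals edgeR called both as lower, and with upper-quartile factors Psme4.

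**Figure D4:**
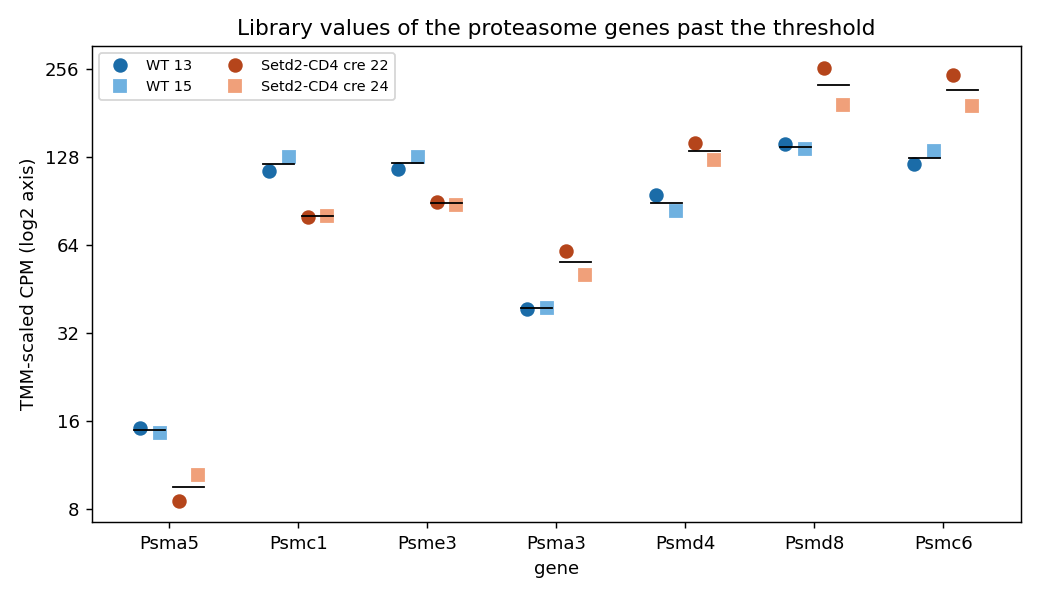
Level in each library (y axis, TMM-scaled CPM on a log2 axis) of the 7 proteasome genes past the threshold, ordered by fold change, with lines at group means. Genotypes do not overlap for any of them, and in each of the 4 that rose library 22 is above library 24.

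The assembly chaperones, which build the core and the ATPase base and then leave, were all at negative log2 fold changes. None of 7 passed the threshold or an unadjusted p under 0.05, which 44.3% of all genes reached. The sign held under the other scalings, while Psmd9, Psmg2 or Psmg4 turned positive in 3 of the 4 fits that left out 1 library. Values ran from -0.23 (Psmg3) to -0.02 (Psmd9), with a lowest edgeR adjusted p of 0.228, for Psmd5, and DESeq2 and the limma fits called none. Psmd5, a chaperone of the base, was at 56.0 and 55.8 CPM in WT and 44.3 and 51.7 CPM in Setd2-CD4 cre. Psmg4 was at 8.30 and 8.29 CPM in WT and 9.25 and 5.04 CPM in Setd2-CD4 cre, so its genotypes overlapped. Its CPM was the lowest of the tested members in both WT libraries and in library 24, though not per length. The genotypes did not overlap for 4 of the 7, or 57.1%, beside 70.7% of all genes. The core subunits known from other tissues were at or near nothing: the testis subunit Psma8 had 3 and 7 counts in WT against 6 and 1 in Setd2-CD4 cre, and the thymus subunit Psmb11 had 0 in all 4 libraries. A count of 0 allows up to 3 counts, or 0.228 to 0.292 CPM, for counting error only.

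Calls depended on which WT library was kept. Psmc6 was the only member past the threshold in all 4 fits that left out 1 library, with a highest edgeR adjusted p of 0.0479. Without WT 15 it was the only member called, beside 9.63% of all genes, and the other 6 had edgeR adjusted p values of 0.0738 (Psmd8), 0.133 (Psmd4), 0.159 (Psma3), 0.193 (Psma5), 0.108 (Psmc1) and 0.214 (Psme3). Without WT 13, where 12.4% of all genes were called, 3 of those kept the threshold and Psma3, Psma5 and Psme3 did not (edgeR adjusted p = 0.157, 0.221 and 0.0857). Without Setd2-CD4 cre 22, Psma5 missed it (edgeR adjusted p = 0.065). Psma5 also missed it in DESeq2 (adjusted p = 0.0938), and Psma3 with upper-quartile factors, library totals and both limma fits of FPKM, at adjusted p values up to 0.0902. The direction of all 7 was the same in each of these fits.

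Levels of subunits that share a complex were set side by side per length, within a library and with no test. In deposited FPKM the 14 constitutive core genes spanned 24.2-fold to 34.0-fold in a library, with Psmb1 highest at 160 to 177 FPKM and Psma3 or Psma5 lowest. Much of that span moved with the length used. The length behind the deposited FPKM was above that of the longest coding transcript of GENCODE M21 for 40 of 48 members, by a median ratio of 2.22 and from 0.324 to 5.35, and for 28 it equalled the sum of all distinct annotated exons. With the longest coding transcript as the length, the core genes spanned 8.13-fold to 17.2-fold, and Psma5 was lowest in every library at 6.45 to 12.8 FPKM. Psma6 was highest in 3 libraries and Psmb6 in Setd2-CD4 cre 22. On that scale the immunoproteasome ratios took other levels, with Psmb8 over Psmb5 at 3.52 to 4.02 and Psmb10 over Psmb7 at 0.305 to 0.411, while the log2 differences between genotypes cannot change.

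Genes that work around the proteasome were counted in 5 lists of 61 symbols, of which 60 were found and tested. In Setd2-CD4 cre 12 rose and 3 fell, or 25.0% against 30.7% of all genes, and with library totals or either limma fit of FPKM the split was 6 and 6. Of 9 partners outside the symbol pattern 4 rose and none fell, or 44.4% beside 30.7% of all genes called. Their median log2 fold change was 0.34, beside -0.01 for all genes. Uchl5, a deubiquitinase of the regulatory particle, was at 32.5 and 30.5 CPM in WT and 50.7 and 48.3 CPM in Setd2-CD4 cre (log2 fold change 0.65, edgeR adjusted p = 0.00933). Txnl1, a thioredoxin-like protein bound to the regulatory particle, was at 95.1 and 88.8 CPM and at 147 and 116 CPM (0.52, edgeR adjusted p = 0.0251). Akirin2, which carries proteasomes into the nucleus, was at 61.0 and 59.2 CPM and at 79.3 and 78.2 CPM (0.39, edgeR adjusted p = 0.0319). All 3 had genotypes apart, whereas Pomp, the core maturation factor, overlapped at 55.2 and 65.9 CPM in WT and 54.3 and 69.2 CPM in Setd2-CD4 cre.

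Ubiquitin supply and shuttling held 4 rises and 2 falls among 18 genes (median 0.23), or 33.3% beside 30.7% of all genes called. Ubb, a gene of tandem ubiquitin repeats, was at 318 and 312 CPM in WT and 673 and 536 CPM in Setd2-CD4 cre. Both Setd2-CD4 cre libraries were far above WT, at a log2 change of 0.94 (edgeR adjusted p = 0.00292), and library 22 was again the higher. Faf2, an adaptor of the segregase Vcp at the endoplasmic reticulum, was at 75.9 and 81.2 CPM in WT and 46.0 and 45.1 CPM in Setd2-CD4 cre (-0.79, edgeR adjusted p = 0.00331). Ubb and Faf2 passed the threshold in every fit that left out 1 library.

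Of 12 genes for the transcriptional control of proteasome genes 1 rose and none fell (median 0.15), or 8.33% beside 30.7% of all genes. That gene was Ngly1, the glycanase that activates NRF1, at 53.7 and 54.3 CPM in WT and 71.2 and 70.9 CPM in Setd2-CD4 cre (0.40, edgeR adjusted p = 0.0323). Hsf1, the heat shock regulator, and Maff, a small MAF partner, were above WT in both Setd2-CD4 cre libraries and did not pass (edgeR adjusted p = 0.065 and 0.0655). Nfe2l1, which encodes NRF1, the activator of proteasome genes when proteolysis falls short, was at 40.4 and 178 CPM in WT and 209 and 64.3 CPM in Setd2-CD4 cre. Its libraries of 1 genotype were further apart than the genotypes (log2 fold change 0.33, SE 1.21, edgeR adjusted p = 0.867).

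In MHC class I peptide loading, the step after the proteasome in antigen processing, 2 of 12 genes rose and 1 fell (median -0.01). That was 25.0%, beside 30.7% of all genes called. The chaperones Calr, at 538 and 559 CPM in WT and 820 and 801 CPM in Setd2-CD4 cre, and Canx, at 496 and 504 CPM and at 733 and 725 CPM, rose by log2 fold changes of 0.56 and 0.54 (edgeR adjusted p = 0.00931 and 0.00968). Nlrc5, the transactivator of class I genes and of Psmb9, fell from 456 and 426 CPM to 285 and 353 CPM (-0.47, edgeR adjusted p = 0.0308). Tap1 overlapped, at 286 and 231 CPM in WT and 327 and 220.1 CPM in Setd2-CD4 cre. Of 9 interferon response genes 1 rose and none fell, or 11.1% beside 30.7% of all genes called. The one that rose was the kinase gene Jak2, from 501 and 494 CPM to 668 and 681 CPM (0.44, edgeR adjusted p = 0.0202). Irf1, an inducer of the immunoproteasome genes, overlapped at 66.0 and 77.6 CPM and at 96.5 and 62.9 CPM. Irf8, which B cells and dendritic cells also express, was at 62.4 and 68.2 CPM and at 138 and 84.4 CPM (0.77, edgeR adjusted p = 0.052), beside B cell marker sums of 215 to 255 CPM and 523 to 730 CPM, whose part in it was not tested. Of these named genes Uchl5, Txnl1, Akirin2, Ngly1, Calr, Canx, Nlrc5 and Jak2 were checked for their calls without WT 13 and without WT 15, and none passed without WT 15 (edgeR adjusted p = 0.1075 to 0.268) or without WT 13 (edgeR adjusted p = 0.0617 to 0.233). Txnl1, Akirin2, Ngly1 and Jak2 also missed it under some other scalings, at adjusted p values up to 0.146.

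**Figure D5:**
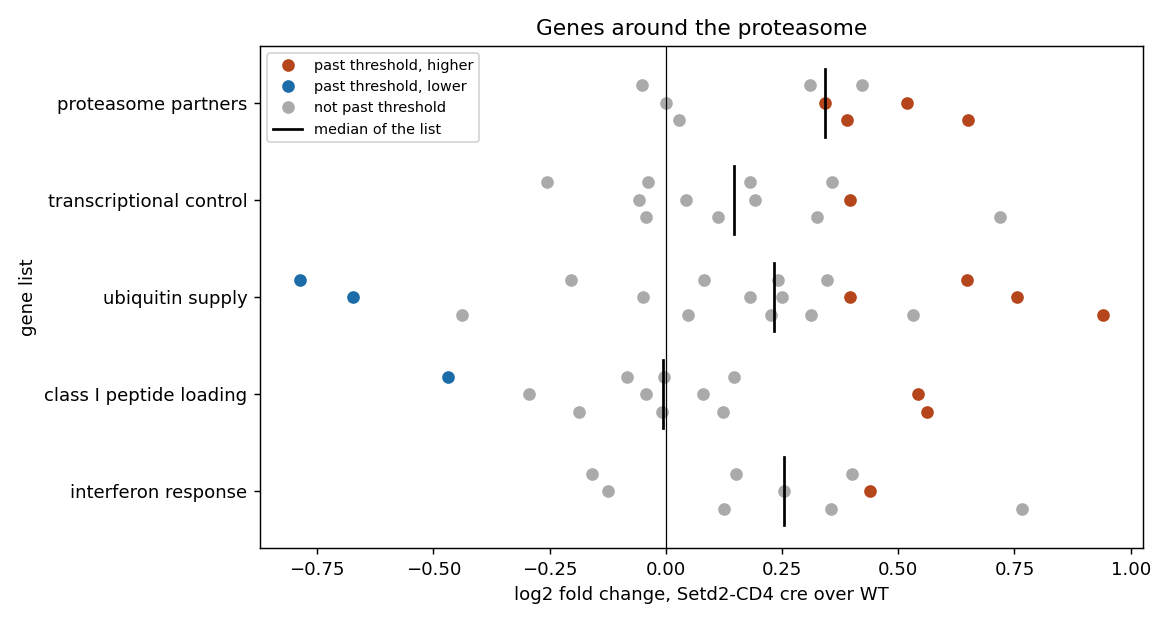
Log2 fold change (x axis, Setd2-CD4 cre over WT, TMM scale) of the 60 genes around the proteasome in 5 lists, 1 point a gene, coloured where past the threshold, with a line at each list's median. Partners have the highest median at 0.34, and class I loading genes the lowest at -0.01.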

How the data were processed

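Total RNA of 4 Th17 cultures was sequenced on an Illumina HiSeq instrument by a commercial service, per the labels' protocols. The authors deposited 1 gene table with raw counts and FPKM for each library, per the file headers. Per the submitters' processing notes the tools were Bowtie2 and RSEM, with no versions, and the builds GRCm38.p6 and mm10. Groups and replicate numbers came from sample titles, and for WT 15 the cell type label reads 14, where the title was followed. Counts were fitted with edgeR 4.0.16 (R 4.3.3), using TMM factors, filterByExpr and robust quasi-likelihood tests with Benjamini-Hochberg adjustment over 12927 genes, with a threshold of 0.05. Intervals of log2 fold changes use the t distribution at the degrees of freedom of that fit, and cover the spread between these libraries only. DESeq2 1.42.0 and limma 3.58.1 (voom, and log2 FPKM with pseudocounts of 1 and 0.1) were alternatives, as were other scalings, no filter, at least 50 counts in 2 libraries, and each library left out. Counting Psme2 with Psme2b and Psma5 with Gm8394, and using the length of the longest coding transcript, were chosen after seeing the data. The edgeR script was tested on simulated data, with fewer genes changed than were called here. It recovered 13 of 67 changes of 1.5-fold, 40 of 67 of 2-fold and 59 of 66 of 4-fold. Of its 130 calls there 18 were false. Positions and exons came from GENCODE M21 on GRCm38, and copies were matches of at least 95% identity over at least 200 bases among its transcripts. Promoter windows came from RefSeq on GRCm38.p6. Named genes were members past the threshold, up to 3 of smallest p in each class, the catalytic subunits, Psme1 and Psme2, the highest and lowest levels, and up to 3 of smallest p in each list around the proteasome with Pomp, Nfe2l1, Tap1 and Irf1. Psma6, Psmc4, Psmc5, Psmd3, Psmd14, Psme4 and Psmg4 were named after their values were seen. The members and lists were chosen with earlier results of these data known. In the lists, 57 symbols matched directly, 3 by an older name and 1 not at all. One gene that this rule names is not reported here.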

Additional observations from a re-analysis of the deposited data

How the results depend on the processing

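No paired analysis was possible because the genotypes share no replicate number. Against 4 higher and 3 lower proteasome genes and 12 higher and 3 lower genes around the proteasome, upper-quartile factors gave 8 lower members and 7 higher and 6 lower surrounding genes. Library totals gave 10 lower members and 6 higher and 6 lower surrounding genes, and limma on log2 FPKM with a pseudocount of 1 or of 0.1 gave 9 lower members and 6 higher and 6 lower surrounding genes. These are the settings in which the median of all tested genes moved by over 0.1, to -0.16 at most. Of all genes, 20.2% were called lower with upper-quartile factors and 22.3% with library totals. With limma on log2 FPKM 21.2% and 20.7% were, at pseudocounts of 1 and 0.1. Leaving out 1 library gave 1 to 15 members higher and 0 to 8 lower, and 1 to 25 surrounding genes higher and 1 to 7 lower. Why a call depends on a library was not tested, although each such fit has fewer samples and assumes that the lone library varies like the others.

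Signs turned only for log2 fold changes near zero or of wide error. Psmd11 moved from -0.0037 to 0.0056 with RLE size factors and 0.0057 with DESeq2. With upper-quartile factors Tap1 was at -0.031 and Pomp at -0.084. With library totals Tap1 was at -0.076, Pomp at -0.12, Irf1 at -0.0055 and Psmc2 at -0.0086. With limma on log2 FPKM and pseudocounts of 1 and 0.1, Tap1 was at -0.087 and -0.091, Pomp at -0.12 and -0.13, Irf1 at -0.024 and -0.028, and Psmc2 at -0.0095 and -0.010. Over the fits that left out 1 library, log2 fold changes ran from -0.082 to 0.068 for Psmb9, -0.76 to 1.76 for Nfe2l1, -0.16 to 0.20 for Pomp, -0.19 to 0.16 for Psmd9, -0.071 to 0.070 for Psmd11, -0.23 to 0.34 for Tap1, -0.18 to 0.43 for Irf1, -0.019 to 0.30 for Psmc2, -0.18 to 0.019 for Psmb7 and -0.20 to 0.059 for Psmg2. Of the immunoproteasome ratios, only Psmb10 over Psmb7 kept its sign in every fit that left out 1 library. Without WT 15, the log2 ratio of Psmb8 over Psmb5 was 0.697 in WT 13 against a Setd2-CD4 cre mean of 0.686. Without Setd2-CD4 cre 22, that of Psmb9 over Psmb6 was 0.135 in Setd2-CD4 cre 24 against a WT mean of 0.103. Both differences thus turned sign. No ratio could pass the threshold, which 2 libraries against 2 cannot reach. Depth limits Psmb11 and Psma8, and the pooled copies of Psma5 and Psme2 limit how far each gene's own count can be read.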

Other observations

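Nfe2l1 stood out for the spread within genotypes rather than between them. Its libraries differed 4.36-fold between WT 13 and WT 15 and 3.24-fold between Setd2-CD4 cre 22 and 24, with counts of 530, 2338, 2152 and 702 in that order of libraries. Among 7552 tested genes with a mean of at least 20 CPM, 7 including Nfe2l1 had libraries at least as far apart in both genotypes, taking the smaller of the 2 within-genotype folds (with 0.5 CPM added). In each genotype the library with the higher Nfe2l1 also had the higher sum of proteasome members, at 3750 CPM in WT 15 beside 3673 CPM in WT 13, and 4124 CPM in Setd2-CD4 cre 22 beside 3653 CPM in 24. Whether the levels are related was not tested, with 2 libraries a genotype. The labels give nothing that distinguishes libraries 15 and 22 from 13 and 24.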
